A study of Mus musculus with 2 samples.

Results

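Wide promoter regions are stretches of open chromatin of at least 2000 bp whose strongest point lies at the start of a protein-coding gene. They were taken from ATAC-seq peak lists of mouse T cells by merging the overlapping peaks of both libraries on the 19 autosomes, which gave 82687 regions. Of these, 65318 held a peak of each library, and 13587 of those had their strongest summit within 1000 bp of an annotated protein-coding transcription start. The 1262 promoter regions with a merged width of 2000 bp or more, 9.29% of the promoter regions, are described here. The regions were thus selected on measured values: their width, the place of their strongest summit and their presence in both lists. Widths are therefore given as descriptions, and no test was made on them.

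The study profiled open chromatin in primary T cells of mouse strain C57BL/6NJ. It has 1 group of 2 libraries, which the labels call biological replicate 1 and biological replicate 2, with no treatment, genotype or control group. Each replicate has its own sample record, and both name the same donor record, so they may come from the same animal and their spread may be technical. Age and developmental stage are given as unknown, and sex as not collected. The labels link a protocol for differentiating CD4+ T cells and name no subset. No label explains the Th0, 72hrs and ASTARR.insert found in the peak names, so the cells and the kind of insert are not described further. Of 12 T-cell marker genes, 10 had a promoter region in both libraries. The same held for 1 of 5 B-cell markers (Pax5), 1 of 5 myeloid markers (Cd14), 1 of 2 NK markers (Klrb1c), 0 of 2 erythroid markers and 2 of 6 markers of other tissues (Epcam and Col1a1).

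In ATAC-seq a transposase inserts adapters where DNA is not held by nucleosomes, so promoters in use usually appear as sharp peaks over a nucleosome-depleted stretch just before the transcription start. Many mammalian promoters lie in CpG islands, stretches in which the CG dinucleotide is kept at a higher density than elsewhere in the genome. Broad open domains around a start have been described at genes that define a cell's identity, where several regulatory elements and alternative starts can lie side by side. In T cells such genes include lineage transcription factors and components of the antigen receptor pathway.

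The range of sequence at the summits of these regions is shown by windows of 50 bp to each side of the summit base, printed on the plus strand of mm10 with every CG dinucleotide in capitals. None of the windows overlaps an annotated exon. The 4 widest and the 4 strongest regions with such a window come before 3 regions from T-cell and nutrient genes, which were chosen after their values were seen.
Ubtf, chr11:102317054-102317154: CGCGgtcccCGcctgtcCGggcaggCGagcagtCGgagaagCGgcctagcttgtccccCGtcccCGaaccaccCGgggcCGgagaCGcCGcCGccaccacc
Tgif1, chr17:70852432-70852532: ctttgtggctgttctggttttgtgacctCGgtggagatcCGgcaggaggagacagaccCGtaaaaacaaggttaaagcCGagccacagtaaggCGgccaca
Ppp1r9b, chr11:94990877-94990977: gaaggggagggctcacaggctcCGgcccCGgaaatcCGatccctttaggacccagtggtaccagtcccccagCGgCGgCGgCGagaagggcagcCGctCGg
Tmc6, chr11:117780784-117780884: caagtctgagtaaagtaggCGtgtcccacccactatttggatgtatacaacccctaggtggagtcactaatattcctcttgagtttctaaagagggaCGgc
Phf13, chr4:151996297-151996397: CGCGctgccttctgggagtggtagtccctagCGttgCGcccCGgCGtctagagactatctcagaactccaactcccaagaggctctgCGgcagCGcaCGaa
Zbtb18, chr1:177442006-177442106: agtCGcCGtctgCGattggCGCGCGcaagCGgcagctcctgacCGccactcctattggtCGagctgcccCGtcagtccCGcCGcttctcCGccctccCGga
Lrrc56, chr7:141194040-141194140: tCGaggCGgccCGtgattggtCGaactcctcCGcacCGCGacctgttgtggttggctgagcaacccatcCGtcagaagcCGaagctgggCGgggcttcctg
Pbx3, chr2:34372665-34372765: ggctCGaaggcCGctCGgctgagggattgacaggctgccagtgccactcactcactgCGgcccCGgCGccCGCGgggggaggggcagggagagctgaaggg
Foxp1, chr6:99521506-99521606: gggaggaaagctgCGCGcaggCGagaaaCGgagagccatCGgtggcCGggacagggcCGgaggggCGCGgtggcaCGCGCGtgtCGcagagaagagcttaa
Slc1a5, chr7:16781212-16781312: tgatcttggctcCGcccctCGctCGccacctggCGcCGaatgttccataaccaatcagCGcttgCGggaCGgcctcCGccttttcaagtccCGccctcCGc
Lat, chr7:126369623-126369723: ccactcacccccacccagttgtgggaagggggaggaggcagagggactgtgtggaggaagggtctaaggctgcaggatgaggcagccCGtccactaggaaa

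The windows differ widely in their CG dinucleotides. The Ubtf window holds 14 of them and is 77.2% G or C, and the Foxp1 window holds 13 at 69.3%. The Tmc6 window holds 2 at 46.5%, and the Lat window holds 1 at 62.4%, so a G- and C-rich summit can be almost free of CG. Among these 11 windows the letters CCAAT, read by the factor NFY, and GGGCGG, the GC box of SP and KLF factors, both occur in the Zbtb18, Lrrc56 and Slc1a5 windows on either strand.

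The 3 widest regions lie in repeats at the start of chromosome 9. There, 4 wide promoter regions lie within chr9:3000062-3038211, at the annotated genes Gm11168, Gm10719, Gm10717 and Gm10715, and 94.2% to 96.9% of their bases are soft-masked as repeats in the reference. They are 16577, 5811, 10118 and 2987 bp wide. Every other wide promoter region is masked over at most 44.4% of its bases, with a median of 8.50% over all members. The placement of reads from copies of such repeats was not given in the sources used here. These widths may therefore not describe 1 place in the genome. With these 4 set aside, 1258 regions remain, the widest of them at Ubtf.

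Most wide promoter regions passed the width threshold by a small margin. The median merged width was 2276.5 bp, the quartiles were 2106 and 2544 bp, and 904 of the 1262 regions were under 2500 bp. A further 270 were from 2500 to under 3000 bp, and 88 were 3000 bp or more, of which 8 reached 4000 bp. Nothing sets the threshold apart in the distribution: 360 promoter regions had widths from 1900 to under 2000 bp and 300 from 2000 to under 2100 bp. Just inside it were the regions at Bach2, Fzd7 and Gars with 2000 bp and those at Abca3 and Hist2h2bb with 2001 bp. Just outside were those at Pard3, 1 bp under the threshold, at Adamts2 and Caskin2 with 1998 bp, and at Abl1 and Brd1 with 1997 bp.

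**Figure D1:**
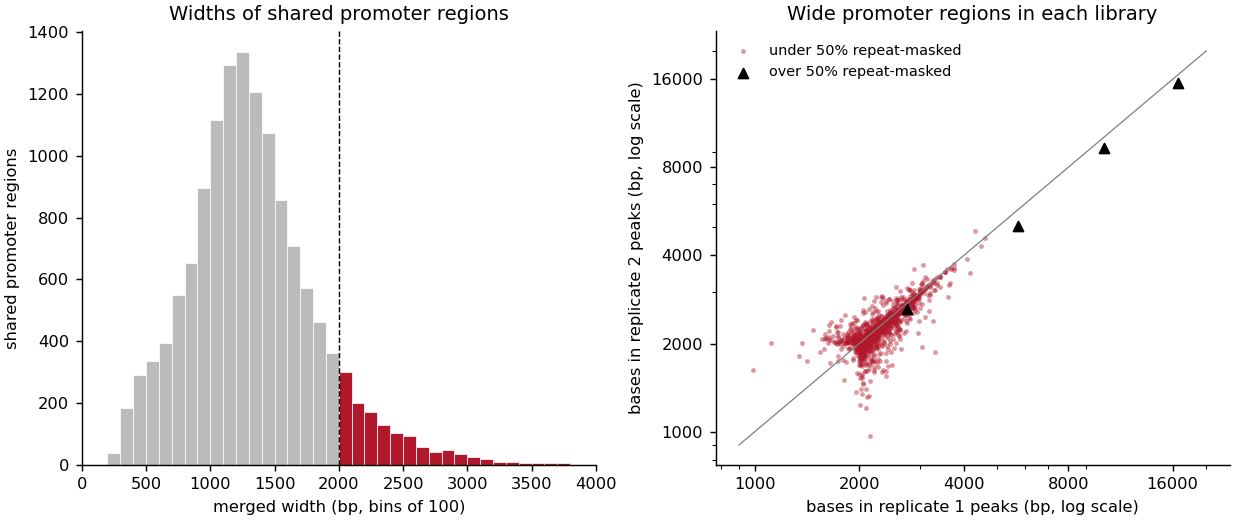
Left, number of shared promoter regions by merged width in bins of 100 bp, with the 1262 regions of 2000 bp or more in red to the right of the dashed threshold (the 8 regions of 4000 bp or more lie beyond the axis). Right, bases covered by peaks of replicate 1 against replicate 2 for each wide region on log axes, 1 point per region, with the line of equality: points spread along the line, and the 4 repeat-masked regions (triangles) include the 3 widest.

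Most of the merged width lay under peaks of both libraries. The rule asks for a peak of each library in every region, so some shared cover is built in. In a merged region, the bases under the peaks of 1 library are that library's own width. Own widths had a median of 2209.5 bp in replicate 1 and 2187.5 bp in replicate 2. The bases covered by both libraries made up a median of 94.8% of the merged width. A peak of 2000 bp or more stood in both libraries at 815 regions (64.6%), in replicate 1 alone at 228, in replicate 2 alone at 171, and in neither at 48, where only the merged region reached the threshold. In 1095 regions each library had 1 peak, and in the other 167 at least 1 library had 2 peaks joined by the other library's peak.

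Replicate 1 had the wider cover at 758 regions, replicate 2 at 490, and 14 were equal. The log2 ratio of own widths, replicate 1 over replicate 2, had a median of 0.01 and an SD of 0.16 over the regions. Across the 1262 regions the log2 own widths had a Pearson correlation of 0.802, or 0.762 without the 4 repeat-masked regions, and this describes a set cut at 2000 bp. Over all 13587 promoter regions it was 0.933. Regions are not independent replicates, and both libraries share the donor record.

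Own widths differed by more than 1.5 times at 13 regions. The region at Gng13, a G-protein gamma subunit, had 2152 bp in replicate 1 and 969 bp in replicate 2. That at Rpl3, a protein of the large ribosomal subunit, had 3315 and 1864 bp, and that at Pcsk1, a prohormone convertase, had 2085 and 1200 bp. In the other direction stood Gprc5c, an orphan receptor, with 1113 bp in replicate 1 and 2011 bp in replicate 2, and Prdm14, a regulator of pluripotency, with 990 and 1626 bp. Zbtb18, a zinc finger repressor, had 1475 and 2226 bp. At Rpl3, Pcsk1, Prdm14 and Zbtb18 the smaller figure is a sum over 2 peaks. The wider of those peaks had 1607, 855, 591 and 957 bp, respectively. The fewest bases covered by both libraries were 591 bp at Prdm14, 969 bp at Gng13 and 1019 bp at H60b, a ligand of an NK-cell receptor. At Prdm14 this was 29.2% of the merged width, the lowest share of any member.

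Away from the repeats, the 10 widest regions lay at genes of several kinds. The region at Ubtf, which encodes a transcription factor of RNA polymerase I, spanned 4864 bp (chr11:102315836-102320699), with 4315 bp in replicate 1 and 4864 bp in replicate 2. It contained 9 annotated starts. Apobec3, an antiviral cytidine deaminase, had 4613 and 4574 bp, and Zmiz1, a transcriptional coregulator, had 4495 and 4300 bp. Tle3, a Groucho-family corepressor, had 4167 and 3478 bp with 14 starts inside. All 4 had at least 3478 bp under the peaks of each library. In replicate 2 the bases at Zmiz1 and Tle3 were split over 2 peaks, the wider of which had 3305 and 3228 bp.

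Tgif1, a homeobox repressor in TGF-beta signalling, had 4086 bp in replicate 1 and 3895 bp in replicate 2. Ppp1r9b, the scaffold protein spinophilin, had 3686 and 3600 bp around 1 annotated start, and Tmc6, a transmembrane channel-like protein, had 3759 and 3570 bp around 9. Ssbp4, of a family of single-stranded DNA-binding proteins, had 3758 and 3726 bp. Ptma, which encodes the nuclear protein prothymosin alpha, had 3757 and 3625 bp. Ndfip1, an adaptor of ubiquitin ligases that restrain T cells, had 2873 and 3598 bp, and replicate 1 broke it into 2 peaks. The starts inside these 10 regions thus ranged from 1 to 14, so a wide region did not need many annotated starts.

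Wide was not the same as strong in signal. The deposited signal value of a peak is a ratio, read here as the fold enrichment of reads at that peak against its surroundings. For the strongest peak of each wide region its median was 8.48 in replicate 1 and 8.21 in replicate 2. Promoter regions of 1000 to under 2000 bp had medians of 12.0 and 11.5, those under 1000 bp had 6.95 and 6.72, and the 640 shared regions of 2000 bp or more that were not promoters had 6.60 and 6.36. The middle width class had the highest signal in both libraries. The deposited −log10 q had medians in replicates 1 and 2 of 162 and 115 for wide promoter regions and 192 and 134 for the middle class. Over all promoter regions the −log10 q medians were 155 and 108 and the signal medians 10.8 and 10.3. Beside all promoter regions, the wide ones were thus lower by signal and slightly higher by −log10 q. Within the 1262 regions the Spearman correlation of merged width with mean signal was -0.34, and over all promoter regions it was 0.083. The width and the signal come from the same peaks, so these are descriptions only.

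Apart from a repeat-masked one, the 10 strongest regions were 2026 to 2291 bp wide, near the threshold. Rasal2, a Ras GTPase-activating protein, had a signal of 15.7 in replicate 1 and 15.2 in replicate 2 over a merged width of 2084 bp. Mkln1, which encodes muskelin, had 16.2 and 14.2 over 2050 bp, and Phf13, a PHD-finger protein, had 15.5 and 14.2 over 2086 bp. Gm10717 in the chromosome 9 repeats had 16.0 and 14.4. The next were Zbtb18, Socs4 with Wdhd1, Hras with Lrrc56, Ybx1, H2-K1 and Acbd4, between 13.2 and 14.4 in each library except Socs4 at 13.0 in replicate 2. H2-K1 encodes a classical MHC class I heavy chain and Ybx1 an RNA-binding protein. By contrast the widest region away from the repeats, at Ubtf, had a signal of 4.54 in replicate 1 and 4.71 in replicate 2.

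Summits were less fixed in wide regions. The strongest summits of the libraries lay within 100 bp of each other at 961 wide regions (76.1%), against 84.2% of promoter regions of 1000 to under 2000 bp and 86.1% of narrower ones. A wide region leaves more room for a summit to move, and the distance was not scaled to the width.

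**Figure D2:**
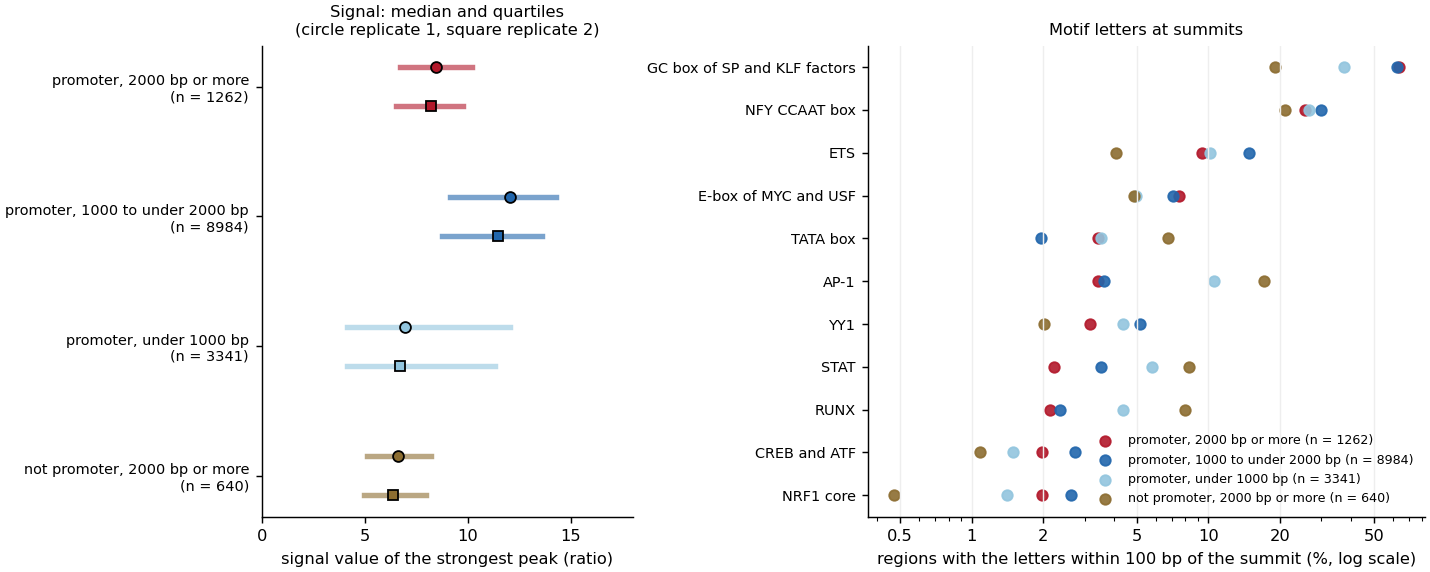
Left, median (symbol) and quartiles (bar) of the signal value of the strongest peak in each width class, circles for replicate 1 and squares for replicate 2: wide promoter regions (8.48 and 8.21) lie below promoter regions of 1000 to under 2000 bp (12.0 and 11.5). Right, share of regions with each motif's letters within 100 bp of the strongest summit, on a log axis, for the same classes.

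The extra width lay on both sides of the start and more on the gene's side. A protein-coding start lay inside 1251 of the regions (99.1%). Measured along the gene from the nearest start, a wide region had a median of 923.5 bp before the start and 1367.5 bp after it. The bases after exceeded those before at 837 regions (66.3%), by a median of 460 bp over all regions. Promoter regions of 1000 to under 2000 bp had medians of 561 bp before and 779 bp after, and 69.5% of them reached farther into the gene. The rule keeps the strongest summit within 1000 bp of a start, and within that limit its median offset was -36.5 bp, that is before the start. Over the wide regions the median share of bases was 27.0% in exons of protein-coding genes, 41.1% in their introns and 23.7% outside such genes. For promoter regions of 1000 to under 2000 bp these medians were 28.7%, 37.3% and 29.5%. Each median was taken separately, so they need not add up to the whole.

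**Figure D3:**
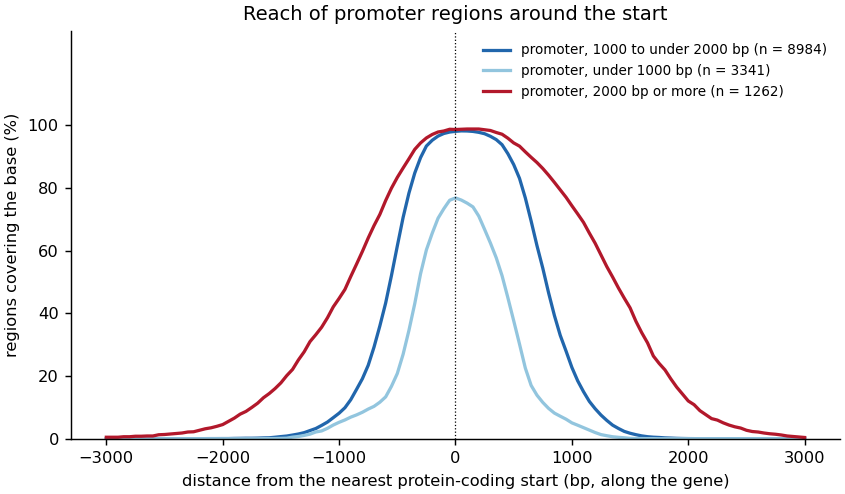
Percent of regions that cover each base from 3000 bp before to 3000 bp after the nearest protein-coding start, counted along the gene, for 3 width classes of promoter region. At 1000 bp before the start 44.8% of wide regions cover the base, and at 1000 bp after it 74.3% do.

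Many wide regions held several starts. At least 2 annotated protein-coding starts lay inside 67.3% of wide regions, 59.1% of those of 1000 to under 2000 bp and 35% of narrower ones. The starts spanned 500 bp or more in 31.2%, 10.8% and 0.898% of them, respectively. A longer region can hold more starts by its length alone, and these shares were not scaled to it. The number of annotated starts of the gene anywhere does not depend on the region's length and gave the same order at its upper end. Each gene was taken at its widest region, however, so a gene with more starts had more chances of a wide one. This was not corrected for. Of 13314 autosomal genes with a promoter region in both libraries, 1388 (10.4%) were at a wide one. The share was 9.18% of genes with 1 start, 9.07% with 2, 10.6% with 3 to 4, 13.6% with 5 to 9 and 21.8% of the 220 genes with 10 or more.

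Gene length and neighbourhood also varied with width. Of genes over 100 kb, 15.7% were at a wide region, against 7.89% of genes of 10 to 30 kb and 11.1% of genes under 10 kb. Of genes whose promoter region had no other shared region within 20 kb, 7.15% were at a wide one, against 14.1% where there were at least 5. Crowded places were as common at the narrowest regions: 16.5% of wide promoter regions had at least 5 such neighbours, against 12% of those of middle width and 17.2% of those under 1000 bp. Starts, length and neighbours are not independent of each other, and their parts were not separated. By chromosome, the share of promoter regions that were wide ran from 7.57% on chromosome 8 to 11.9% on chromosome 10.

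Regions at several genes were as frequent among wide promoter regions as among those of middle width. A wide region served at least 2 genes in 134 cases (10.6%), and the share was 10.6% for promoter regions of 1000 to under 2000 bp and 4.04% for narrower ones. Divergent pairs, where genes start back to back, made up 105 of the 134, or 8.32% of wide regions against 7.55% of those of middle width. Convergent pairs made up 15, same-strand pairs 11, and 3 regions served 3 genes. The latter lay at the histone genes Hist2h2ab, Hist2h2ac and Hist2h2be, at Bet1l, Gm45785 and Ric8a, and at 4933427D14Rik, Gm43951 and Txndc17. Among the regions at 2 genes were that of the divergent histone genes Hist1h2ai and Hist1h2bl and that at Ddit3. Genes were counted by annotation entry, and the same-strand pair at Ddit3 is 2 entries with that 1 symbol.

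In the other direction, 11 genes had 2 wide regions each, at separate starts. They include the T-cell regulators Satb1 and Foxp1 as well as Dusp1, Fgfr2, Tsc22d1, Pitpnm2, Mbnl2, Pde10a, Asap1, Acot7 and Rai1. Some pairs lie far apart: the Fgfr2 regions begin at chr7:130265163 and chr7:133121776, and the Dusp1 regions at chr17:26507248 and chr17:26560315. Regions were assigned to genes by annotated starts alone, and whether each acts for its gene was not tested. At Foxp1 the wider region (chr6:99520590-99523591) had 2695 bp in replicate 1 and 2452 bp in replicate 2, and the other (chr6:99094889-99096898) had 2010 and 1811 bp. At Satb1, a genome organiser needed for T-cell development, they had 3034 and 2726 bp (chr17:51831280-51834351) and 2345 and 2211 bp (chr17:51812331-51814675).

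Wide promoter regions were rich in G, C and CG dinucleotides, as promoter regions of middle width were. Their median G and C content was 60.1%, against 59.0% for promoter regions of 1000 to under 2000 bp, 55.9% for narrower ones and 50.6% for wide regions that were not promoters. Within 100 bp of the summit the medians were 68.2%, 66.7%, 59.2% and 52.2%. The CpG ratio is the number of CG dinucleotides over the number that the region's C and G content would give by chance order. It exceeded 0.6, a usual mark of CpG islands, in 984 wide promoter regions (78%), in 73.6% of those of middle width and in 40.9% of narrower ones. The wide promoter regions thus differed little from those of middle width and more from the other classes.

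The other 278 wide promoter regions had a CpG ratio of at most 0.6, and several of their medians were different. Their median signal was 7.06 in replicate 1 and 6.91 in replicate 2, against 8.75 and 8.45 for the CpG-rich ones. They had a median of 3.5 other shared regions within 20 kb against 2, and reached farther into the gene than before it by a median of 629 bp against 433.5 bp. Their median merged width was 2267.5 bp, close to the 2277.5 bp of the CpG-rich regions. The lowest CpG ratios stood at Ikbke, an IKK-related kinase, with 0.109, at Gbp2, an interferon-induced GTPase, with 0.119, at Il16, a cytokine precursor, with 0.122, and at Cd226, an activating receptor of T and NK cells, with 0.131. These were ranked after their values were seen. Each was at least 2002 bp wide in both libraries.

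The same letters were counted at summits in each class. Exact matches to 11 short motifs were sought on both strands within 100 bp of the strongest summit, and no motif contains another, though matches can overlap. The GC box GGGCGG was in 63.9% of wide promoter regions, 62.3% of those of middle width, 37.4% of narrower ones and 56.4% of all promoter regions. CCAAT was in 25.5% of wide regions and 28.6% of all, and the E-box CACGTG of MYC and USF in 7.53% and 6.62%. The letters CCGGAAG, bound by ETS factors, were in 9.35% of wide promoter regions against 14.9% of those of middle width, 10.2% of narrower ones and 13.3% of all. AAGATGG, a YY1 motif, was in 3.17% against 4.78% of all, and the TATA box letters TATAAA in 3.41%, against 1.97% of those of middle width, 3.53% of narrower ones and 2.49% of all.

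Motifs of AP-1, RUNX and STAT factors, which also act at distal elements in T cells, were less frequent at these summits than at the narrowest promoter regions, and for AP-1 and RUNX close to the share at those of middle width. TGANTCA, bound by AP-1, was in 3.41% of wide promoter regions, 3.63% of those of middle width and 10.6% of narrower ones, which gives 5.33% of all. TGTGGTT, bound by RUNX, was in 2.14%, 2.37%, 4.34% and 2.83%, and TTCNNNGAA, bound by STAT factors, in 2.22%, 3.52%, 5.78% and 3.95%. Wide regions whose strongest summit was not at a protein-coding start, some of which still contain such a start, held them in 17.2%, 7.97% and 8.28%. The cyclic AMP element TGACGTCA was in 1.98% against 2.36% of all promoter regions, and the NRF1 core CGCATGCG in 1.98% against 2.27%. Split by the CpG ratio, AP-1 letters were in 8.63% of CpG-poor wide promoter regions and 1.93% of CpG-rich ones, beside 11.5% and 2.25% of other promoter regions. The share of AP-1 letters thus differed with the CpG ratio in both groups, and a match of letters is not a bound site.

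Genes at wide promoter regions were then read by role in 17 lists of 380 genes, of which 332 had a promoter region shared by the libraries and 81 were at a wide one. For each gene the widest such region was used. The background is the 10.4% of all genes with a promoter region in both libraries. The share was above it in 13 lists and below it in 4, and the lists were chosen with earlier results of these data known. Some lists lay close to it. Above it were other blood cells (11.1%), cytokine receptors (12.5%) and costimulation, inhibition and homing genes (12.5%). Immediate early and NF-kB factors (10%) were just below. Both libraries had own widths of 2000 bp or more for 63 of the 81 genes, and neither had for 2, Btg2 and Dusp5. Genes are not replicates, lists differ in gene length and starts, and no list was tested.

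**Figure D4:**
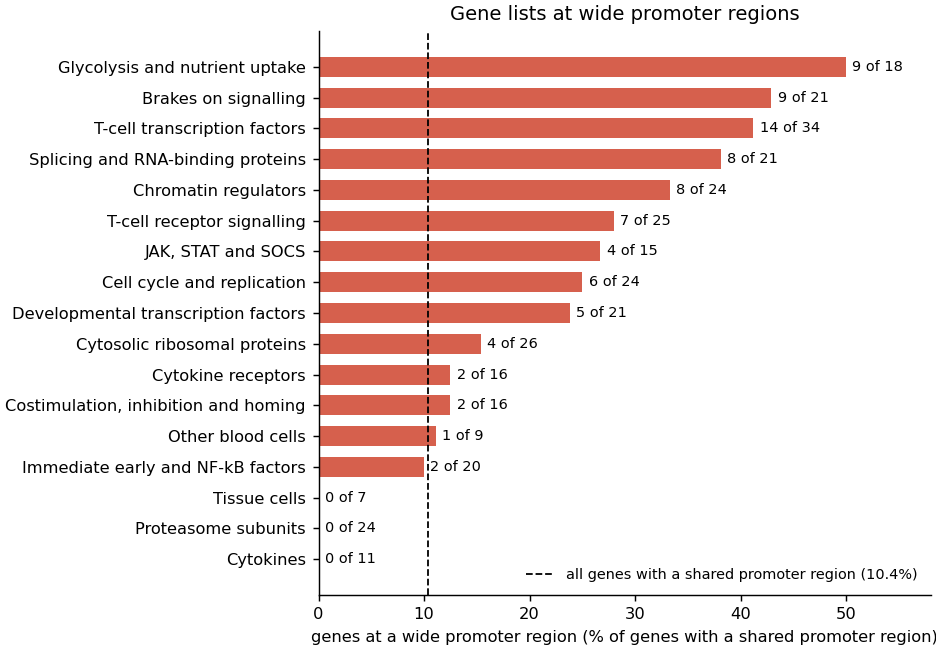
Bars show, for each of 17 gene lists, the percent of its genes with a promoter region in both libraries that were at a region of 2000 bp or more, with the counts beside them. The dashed line marks the 10.4% of all such genes: 9 of 18 glycolysis and nutrient genes and 14 of 34 T-cell transcription factors lie above it, and 0 of 24 proteasome genes at the foot.

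Transcription factors of T cells were at wide regions in 14 of 34 cases (41.2%), with a median promoter region of 1838.5 bp against 1329 bp over all genes. Besides Satb1 with 3072 bp and Foxp1 with 3002 bp, they include Zeb1, Maf, Ikzf1, Tox, Irf4, Runx1, Lef1, Batf, Runx3, Rora and Bach2. Zeb1, a zinc finger repressor, had 2960 bp in replicate 1 and 2914 bp in replicate 2, with signals of 5.93 and 6.16. Maf, a factor of cytokine programmes, had 2173 and 2690 bp, and Ikzf1, the Ikaros factor of lymphoid development, had 2629 and 2229 bp. Of the 14, 10 were 2000 bp or more in both libraries. With only the 5' end of each gene taken as its start, which leaves out alternative starts, the count was 9 of 33.

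Several factors of the same group had regions under the threshold. Gata3, the factor of Th2 cells, had 1122 bp in replicate 1 and 1091 bp in replicate 2 with signals of 11.3 and 10.8. Bcl11b, a T-lineage commitment factor, had 869 and 861 bp, and Prdm1, which encodes Blimp-1, had 1237 and 1217 bp. Tbx21, the Th1 factor T-bet, fell short of the threshold at 1850 and 1858 bp. These genes outside the naming rule were chosen after their values were seen.

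Antigen receptor genes were at wide regions in 7 of 25 cases (28%). Nfatc1, a calcium-regulated transcription factor, had 3022 bp in replicate 1 and 3185 bp in replicate 2, and Nfatc2 had 2188 and 2212 bp. Cd6, a coreceptor, had 2573 and 2820 bp. Cd3g and Cd3d, subunits of the CD3 complex that carries the receptor's signal, had 2673 and 2594 bp (chr9:44980000-44982672) and 2183 and 2177 bp (chr9:44985322-44987584), and 2649 bp lie between these regions. Lat, the adaptor of the receptor pathway, had 2382 and 1863 bp.

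These receptor regions were CpG-poor, as the printed Lat window shows. Of the 7, all but Nfatc1 had a CpG ratio of at most 0.6, from 0.176 at Cd3g to 0.407 at Nfatc2. Among the 14 transcription factors 3 did, Irf4 and Batf among them, and among the 8 chromatin and the 8 splicing genes none did. Over all wide regions 278 of 1262 did. The lists differed in the same way with their narrow regions included. The median CpG ratio was 0.301 over all 25 receptor genes, 0.855 over the 24 chromatin genes and 0.898 over the 21 splicing genes. A low ratio was thus not particular to the wide receptor regions. With a peak of 2000 bp or more asked of each library, an alternative chosen after seeing the data, 4 receptor genes remained at a wide region.

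Genes that restrain signalling were at wide regions in 9 of 21 cases (42.9%). Dusp6, a phosphatase of ERK kinases, had 3028 bp in replicate 1 and 3174 bp in replicate 2, and Sh2b3, an adaptor that limits cytokine signals, had 2982 and 2747 bp. Dusp4, of the same phosphatase family as Dusp6, had 2210 and 2798 bp. Others were Dusp1, Btg2, Btg1, Inpp5d and Dusp5. Of the JAK, STAT and SOCS genes 4 of 15 (26.7%) were at wide regions: the signalling inhibitors Socs2, with 3675 and 3633 bp, and Socs1, and the transcription factors Stat5a, with 3092 and 3073 bp, and Stat6, with 2533 and 2447 bp.

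Metabolic genes were at wide regions in 9 of 18 cases (50%), with a median promoter region of 2018 bp. Slc1a5, a glutamine transporter, had 2634 bp in replicate 1 and 2879 bp in replicate 2, and Gapdh, a glycolytic enzyme, had 2982 and 2388 bp. Pfkfb3, which makes an activator of phosphofructokinase, had 2871 and 2951 bp, and Ldha, which makes lactate, had 2571 and 2606 bp. The others were Pfkp, Slc3a2, Hk1, Hk2 and Pgam1. Of the 9, 8 were 2000 bp or more in both libraries, and Pgam1 had 2078 bp in replicate 1 and fell 1 bp short in replicate 2. The glucose transporter gene Slc2a1 had 1188 and 1167 bp. With only the 5' end of each gene as its start, 5 of 16 genes were at a wide region, a lower share (31.2%) than that of the genes that restrain signalling (8 of 20, 40%).

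**Figure D5:**
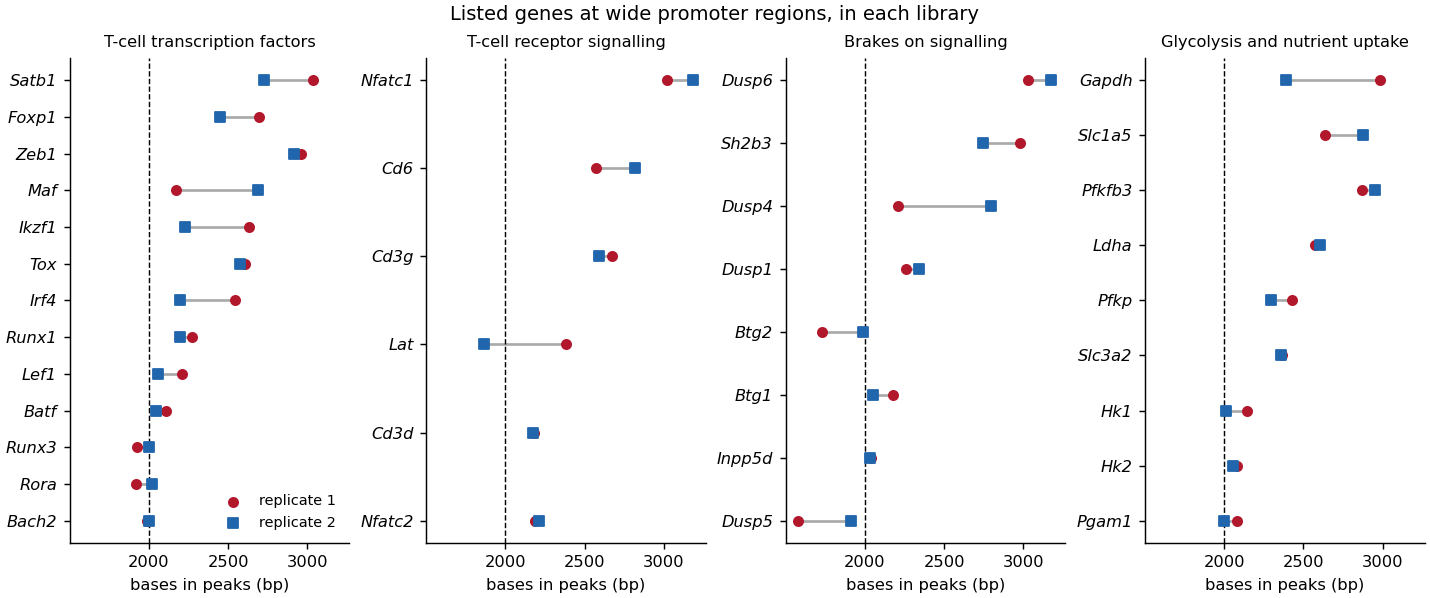
Bases under peaks of replicate 1 (circles) and replicate 2 (squares) at genes of 4 lists that lay at a wide promoter region (those reported here), joined by a line, in order of merged width, with the 2000 bp threshold dashed. Zeb1 has 2960 and 2914 bp, close together, while Lat has 2382 and 1863 bp, either side of the threshold.

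Chromatin regulators were at wide regions in 8 of 24 cases (33.3%) and splicing genes in 8 of 21 (38.1%). Kmt2c, a histone methyltransferase, had 2886 bp in replicate 1 and 2840 bp in replicate 2, Dnmt3a, a DNA methyltransferase, had 2662 and 2710 bp, and Kmt2a had 2485 and 2515 bp. Ddx5, an RNA helicase, had 2555 and 2447 bp, Hnrnpa2b1 had 2517 and 2465 bp, and the splicing factor gene Srsf1 had 2445 and 2301 bp. Only 4 of the 8 splicing genes were 2000 bp or more in both libraries, and with replicate 2 alone 4 of 21 were counted. Cell cycle genes gave 6 of 24 (25%). Cdk6, a kinase of the G1 phase, had 3589 bp in each library, and its partner Ccnd2, a D-type cyclin, had 3532 and 3518 bp. E2f3 had 2845 and 3223 bp.

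Other lists were nearer to the background. Ribosomal protein genes gave 4 of 26 (15.4%), among them Rpl7 with 2476 bp in replicate 1 and 2464 bp in replicate 2 and Rpl10a with 2276 and 2293 bp. Cytokine receptors gave 2 of 16 (12.5%), Ifngr2 with 2222 and 2642 bp and Tgfbr1 with 2457 and 2446 bp. Costimulation, inhibition and homing genes also gave 2 of 16, the chemokine receptor gene Cxcr4 with 2535 and 2442 bp and the sphingosine phosphate receptor gene S1pr1 with 2027 and 2019 bp. Immediate early and NF-kB factors gave 2 of 20 (10%), Jun with 3410 and 3383 bp and Egr2 with 2928 and 2922 bp, though the list's median region was 1750 bp. Junb and Egr3, also listed, are not among the 20. Their starts lay inside shared regions of 3267 and 3117 bp whose summits were more than 1000 bp from any start.

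Proteasome genes had promoter regions of high peak signal that were under the width threshold. None of 24 was at a wide one, their median region was 1157.5 bp, and the widest, at Psma7, had 1755 bp in replicate 1 and 1740 bp in replicate 2. Their median signal was 13.9 in replicate 1 and 13.4 in replicate 2, against 11.4 and 10.8 over all genes. Cytokine genes were also at no wide region, 0 of 11, but with a median region of 612 bp and median signals of 4.37 and 4.32. The listed cytokine gene Ltb is not among the 11. Its start lay inside a shared region of 2301 bp in replicate 1 and 2022 bp in replicate 2, with the summit at 1199 bp. Il2, the growth factor of activated T cells, had 758 bp in replicate 1 and 844 bp in replicate 2, and Il4 had 612 and 524 bp. Thus lists with none at a wide region included promoter regions of both high and low peak signal.

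Genes of other lineages were present too. Developmental transcription factors, which T cells do not usually express, were at wide regions in 5 of 21 cases (23.8%). Gata6 had 2824 bp in replicate 1 and 2646 bp in replicate 2 with signals of 4.37 and 4.07, and Olig2 had 2515 and 1925 bp. All 5, Lhx2 and Nkx2-1 among them, were CpG-rich, as were 78% of all wide promoter regions. The median CpG ratio over all 21 developmental factors, wide or not, was 0.765. With replicate 2 alone 3 of 22 were counted. Of genes of other blood cells 1 of 9 (11.1%) was at a wide region, Cebpa, a myeloid factor, with 2005 and 1735 bp, and it was not wide in replicate 2 alone. Of genes of other tissues 0 of 7 were. Of the 10 T-cell markers with a promoter region 4 were, Cd3d, Cd3g and Lat among them, beside the 10.4% of all such genes. Open chromatin at a start does not show that the gene is transcribed, and expression was not measured.

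The rule on the summit left out some regions over the starts of T-cell genes. Of the 640 shared regions of 2000 bp or more that were not promoters, 140 held a protein-coding start inside while their strongest summit lay more than 1000 bp from any. The region over Tcf7, the gene of the T-cell factor TCF-1, had 2674 bp in replicate 1 and 2772 bp in replicate 2, and its summit was 1279 bp from the nearest start. That over Cd247, the zeta chain of the antigen receptor, had 2443 and 2256 bp with the summit at 1328 bp. The inhibitory receptor gene Pdcd1 had 2111 and 2051 bp, and the adaptor gene Lcp2 had 2479 and 2440 bp. In all, 11 listed genes had a start in such a region, so the counts above are those of regions strongest at the start.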

How the data were processed

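ATAC-seq peaks of 2 libraries were analysed as deposited, in narrowPeak form on mm10 per the labels. Aligner, peak caller, threshold and read numbers are not given in the sources used here. Depth is therefore unknown, and absence from a peak list can also mean a peak too weak to be called. The authors' signal value per peak is a ratio, read as fold enrichment from its values. The deposited −log10 p and −log10 q are the caller's own, as is the authors' score, which was not used for any result. On chromosomes 1 to 19, replicate 1 had 76230 peaks with a median width of 629 bp, and replicate 2 had 72904 with 638 bp.

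Overlapping peaks were merged, and a region took the strongest summit of either library. Starts were the 52092 autosomal starts of protein-coding transcripts in GENCODE mouse release 21, and sequence came from GRCm38. Python 3.11.15 with pandas 2.3.3, numpy 2.4.6, scipy 1.17.1 and pysam 0.24.0 was used, and the merging was tested on simulated data. The members and lists were chosen with earlier results of these data known. Named were the 10 widest and 10 strongest regions, the 3 widest of each list, the 5 nearest the threshold on each side, the 5 with most genes, and the 3 at each extreme of disagreement between libraries. Further genes complete a list or were chosen after their values were seen. With 1 group of 2 libraries no test between conditions was possible. Alternatives changed the width, the distance, the starts, the q threshold, merging and the libraries used. A few listed genes are counted and not reported here by name.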

Additional observations from a re-analysis of the deposited data

How the results depend on the processing

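The counts move mostly with the width threshold. From 1262, the number of wide promoter regions became 4221 at 1500 bp and 88 at 3000 bp, and 815 when a peak of 2000 bp or more was asked of each library, an alternative chosen after seeing the data. The median excess of bases after over before the start, 460 bp, was 321 bp at 1500 bp and 752 bp at 3000 bp, 508 bp with summits within 500 bp, 625 bp with the 5' end of each gene alone, 415 bp with a wide peak in each library, and 416 to 475 bp with 1 library left out. The share at 2 or more genes, 10.62%, was 11.61% and 6.818% at the same widths, 8.959% and 12.71% with summits within 500 and 2000 bp, 12.31% with 5' ends, and 10.11% to 10.72% with 1 library left out. The median G and C content, 60.08%, was 60.64% at 3000 bp, 60.01% with summits within 2000 bp, 60.23% with 5' ends, 60.21% with a wide peak in each library, and 60.32% to 60.4% with 1 library left out. The share of genes at a wide region, 10.43%, was 34.79% and 0.706% at 1500 and 3000 bp, 9.644% and 11.28% with summits within 500 and 2000 bp, 9.547% with 5' ends, 6.993% where both libraries covered 2000 bp, 6.775% with a wide peak in each library, and 8.109% to 8.521% with 1 library left out. T-cell transcription factors, 14, were 2 at 3000 bp and 9 with 5' ends. Of 17 lists, 8 stayed on the same side of the background in all 12 alternatives: T-cell receptor signalling, T-cell transcription factors, cytokines, JAK, STAT and SOCS, brakes on signalling, cell cycle, proteasome and tissue cells. Cytokine, proteasome and tissue genes started at 0, so no stricter setting could move them. The width of a region depends on depth and on the caller's threshold, neither of which is known here. No paired analysis was possible because there is only 1 group.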

Other observations

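Gene families were also counted by the stem of the symbol, for 52 stems with at least 20 genes at a shared promoter region, of which 16 had a share above the 10.4% background. Histone genes had the highest share, with 23 of 53 (43.4%) at a wide region. These 23 genes lie at 13 regions, 11 on chromosome 13 and 2 on chromosome 3, with merged widths from 2001 to 3303 bp, so they are far from independent, and near-identical copies can share reads. Dual-specificity phosphatases followed with 6 of 20 (30%) and Zbtb zinc finger genes with 10 of 39 (25.6%). At the other end were the stems Dnajc (0 of 27) and Snx (0 of 29), then Mrpl, of mitochondrial ribosomal proteins, with 1 of 48 (2.08%). The stems were ranked after their values were seen.

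Chromosome X lay outside the rule. It held 33 regions of 2000 bp or more among 422 shared promoter regions (7.82%), against 9.29% on the autosomes. The widest were at Tbl1x, with 3400 bp in replicate 1 and 3309 bp in replicate 2, and at Bcor, a corepressor gene, with 2709 and 2499 bp. Chromosome Y held 0 wide regions among 4 shared promoter regions.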
